A study of Mus musculus with 27 samples.

Results

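The livers of wild-type mice were compared with the brains of wild-type mice, gene by gene, on Illumina BeadChips. The 6 arrays, 3 of liver and 3 of brain, were taken by their tissue and genotype labels from the 27 arrays of a study of the histone H2A deubiquitinase Mysm1. That study covered 3 tissues (liver, brain and bone marrow) in wild-type, heterozygous and homozygous carriers of a knockout-first Mysm1 allele, with 3 arrays in each of 9 groups. Both groups used here were wild type at Mysm1, on a C57BL/6 background, with total RNA from snap-frozen tissue and no treatment. Arrays of 1 tissue were taken as different animals, since the design text calls the comparisons within a tissue inter-animal ones. Age, sex, the part of the brain or liver sampled, and whether 1 animal gave both tissues are not stated by the labels.

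The liver makes most plasma proteins, detoxifies foreign compounds, turns ammonia into urea and sends glucose, ketone bodies and lipoproteins to other organs. The brain depends on blood glucose and, in fasting, on ketone bodies, and its neurons signal through synapses with the help of myelinating oligodendrocytes and astrocytes. Genes that every cell needs, such as those for ribosomes, proteasomes and splicing, are active in both.

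The labels fitted the leading markers. Of the hepatocyte markers, Apoa1, the main protein of high-density lipoprotein, read 15.2, 15.32 and 15.24 in liver and 5.97, 5.96 and 6.23 in brain (log2 intensity of the normalised signal, 1 value per array). Apob, the structural protein of very-low-density lipoprotein, read 11.7, 11.37 and 11.85 in liver and was not above background on any brain array. Of the neuronal markers, the synaptic vesicle protein Syp read 5.29, 5.59 and 5.51 in liver and 14.16, 14.15 and 13.99 in brain, and the neuronal splicing regulator Rbfox3 read 5.72, 5.56 and 6.03 in liver and 13.59, 13.62 and 13.85 in brain. The myelin gene Mbp read 5.17, 4.9 and 5.18 in liver and 15.1, 15.1 and 14.85 in brain. All of these groups lay far apart, with no overlap. Some defining markers gave no reading on this array: the probe of Alb, the serum albumin gene, read 5.15, 5.23 and 5.13 in liver and was detected on 1 liver array, and the probes of Fabp1 and Tat were detected on no array. In the same way, the probes of the neuronal genes Snap25 and Nefl were detected on no array, brain included.

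The arrays of a tissue were close to each other: correlations over the features tested were 0.986 to 0.99 within liver and 0.989 to 0.996 within brain, against 0.465 to 0.479 between the tissues. Probes detected above background (detection p under 0.05) made up 33.2% to 36.2% of the 45281 probes on the liver arrays and 43.6% to 43.9% on the brain arrays. The 50 brightest probes carried 15.6% to 16.8% of all signal in liver and 10.4% to 10.8% in brain. The wild-type livers lay on 1 BeadChip and the wild-type brains on another, so tissue and BeadChip cannot be told apart within these 6 arrays. On the BeadChip of the brains, against the homozygous livers that shared it, 10035 of the 10700 calls tested there kept their direction, 9 turned and 656 were lost, with the livers' genotype changed too.

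Of the 13683 features tested, 5051 (36.9%) were higher in liver and 5841 (42.7%) were higher in brain, so 10892 (79.6%) differed in 1 direction or the other. A feature is a named gene, represented by its brightest probe, or a probe with no single gene name, and it had to be detected on all 3 arrays of at least 1 tissue. The test was limma's moderated test on log2 intensity, and an adjusted p (Benjamini-Hochberg) under 0.05 made a call. Without normalisation between arrays, 22.9% of the calls were higher in liver in place of 46.4%, as the median of all features moved from -0.105 to -0.822. With a fold of at least 4 added, 1526 features (11.2%) were higher in liver and 1950 (14.3%) higher in brain. Detection split them further: 8807 features were detected on all 6 arrays (of these 44.5% were higher in liver and 33.8% in brain), 695 (5.08%) on all liver and no brain arrays, and 2392 (17.5%) on all brain and no liver arrays. The lowest detected signal was 5.12, 5.34 and 5.22 on the liver arrays and 4.79, 4.78 and 4.79 on the brain arrays. A signal between these limits could count as detected in brain and undetected in liver, so the counts do not rest on equal limits. In bulk tissue, fewer cells of a type and less RNA per cell cannot be told apart.

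**Figure D1:**
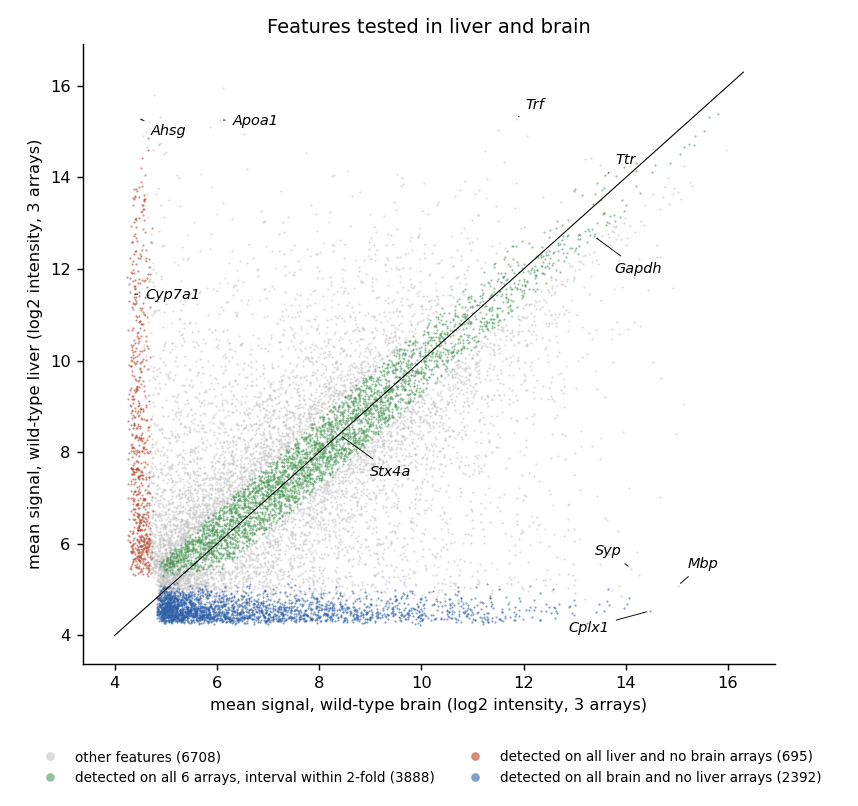
Mean signal of the 13683 features in the 3 wild-type brain arrays (horizontal axis) and the 3 wild-type liver arrays (vertical axis), both in log2 intensity, with the diagonal marking equal signal and the features coloured by class. The 695 liver-only and 2392 brain-only features lie along the left and lower edges, and the 3888 features within 2-fold follow the diagonal.

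Among genes detected in liver and not in brain, those with the largest differences included plasma proteins and metabolic enzymes. For a gene not above background on any array of 1 tissue, the fold is a lower bound, set against the lowest detected signal or the gene's own signal, whichever was higher. Ahsg, the plasma protein fetuin-A, read 15.25, 15.25 and 15.3 in liver and 4.67, 4.44 and 4.43 in brain, at least 1429-fold higher in liver (limma adjusted p = 3.37e-10). Kng1, the kininogen that gives rise to bradykinin, read 14.9, 14.92 and 14.76 in liver and 4.55, 4.68 and 4.71 in brain, at least 1076-fold higher. Mat1a, which makes S-adenosylmethionine in hepatocytes, was at least 903-fold higher, with 14.58, 14.7 and 14.55 in liver. These 3 genes varied by under 0.2 on the log2 scale among the livers. Bounds between 452 and 790.3 were found for the zinc-binding glycoprotein Azgp1, the glycine methyltransferase Gnmt, the bile-acid-modifying Cyp2c70, the lipoprotein-bound proteins Pon1 and Apom, the carboxylesterase Ces1c, the inter-alpha-inhibitor chain Itih4, the urea cycle enzyme Cps1 and the carbonic anhydrase Car3.

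Among genes detected in brain and not in liver, those with the largest differences included synaptic and axonal genes. Cplx1, a complexin that clamps and triggers vesicle fusion, read 4.3, 4.58 and 4.72 in liver and 14.6, 14.41 and 14.41 in brain, at least 608-fold higher in brain (limma adjusted p = 4.54e-10). Kif1a, the kinesin that carries synaptic vesicle precursors along axons, read 4.8, 4.61 and 4.65 in liver and 14.14, 14.01 and 13.95 in brain, at least 448-fold higher. Eno2, the neuronal enolase, was at least 427-fold higher, with 13.93, 13.96 and 14 in brain. No liver array came near the brain arrays for any of them. The next bounds ran from 204 for the vesicle glycoprotein Sv2a to 351 for the brain sulfotransferase Sult4a1. Between them lay the glutamate transporter Slc1a3 of astrocytes, the myelin tight-junction gene Cldn11, the splicing regulator Rbfox1, the endocytic endophilin Sh3gl2, the small GTPase Rab15, the metallothionein Mt3 and Zcchc18.

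A gene's level was called shared where the 95% confidence interval of its difference lay within 2-fold, which held for 3888 (44.1%) of the features detected on all 6 arrays. The named genes closest to equality were Stx4a, a plasma membrane syntaxin, the histone acetyltransferase Ep300, the RNA polymerase III factor Brf1, the chromatin protein Atf7ip, the anaphase-promoting complex subunit Cdc16, the splicing helicase Dhx38, Dcun1d5, Wdr59, the splicing factor Srsf2 and the histone methyltransferase Setd1b. Stx4a read 8.38, 8.39 and 8.39 in liver and 8.32, 8.45 and 8.41 in brain. Ep300 read 8.16, 8.11 and 8.11 in liver and 8.11, 8.21 and 8.05 in brain, and in neither gene did a tissue stand above the other.

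The promoters of the 3 classes differed in their CG dinucleotides, the sites of DNA methylation in mammals. The RefSeq windows of GRCm38.p6 used here run from 250 bases before to 50 bases after a gene's start, and 8914 of the 11060 named genes had one. The first gene of each class is shown, with CG in capitals: Ahsg (liver only, chr16:22891765-22892064, + strand, 6 CG), Cplx1 (brain only, chr5:108549978-108550277, - strand, 24 CG) and Stx4a (within 2-fold, chr7:127841558-127841857, + strand, 23 CG).
Ahsg: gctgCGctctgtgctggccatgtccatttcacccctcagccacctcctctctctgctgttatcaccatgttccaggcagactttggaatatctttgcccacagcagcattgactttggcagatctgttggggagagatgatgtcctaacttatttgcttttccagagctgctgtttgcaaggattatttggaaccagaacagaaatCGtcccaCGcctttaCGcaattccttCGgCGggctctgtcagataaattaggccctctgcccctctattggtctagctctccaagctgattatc
Cplx1: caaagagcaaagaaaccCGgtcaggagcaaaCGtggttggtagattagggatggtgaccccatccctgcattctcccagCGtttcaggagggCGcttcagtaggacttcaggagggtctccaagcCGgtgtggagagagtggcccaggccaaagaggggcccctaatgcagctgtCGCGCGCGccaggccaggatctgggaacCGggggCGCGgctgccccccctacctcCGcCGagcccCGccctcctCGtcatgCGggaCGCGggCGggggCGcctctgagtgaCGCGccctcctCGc
Stx4a: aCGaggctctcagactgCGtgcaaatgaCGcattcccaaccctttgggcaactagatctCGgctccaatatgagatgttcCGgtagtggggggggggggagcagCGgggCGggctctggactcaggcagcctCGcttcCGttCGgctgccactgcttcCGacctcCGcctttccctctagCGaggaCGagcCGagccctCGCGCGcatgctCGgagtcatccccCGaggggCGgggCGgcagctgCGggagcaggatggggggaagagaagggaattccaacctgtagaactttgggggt
The median number of CG dinucleotides per window was 5 (quartiles 3 and 10) over 397 liver-only genes and 17 (quartiles 8 and 27) over 1263 brain-only genes. It was 22 (quartiles 16 and 29) over 2658 genes within 2-fold, 20 over all named genes tested and 7 over the 27025 genes of the table. These are descriptions of the windows with no test, and the window of a gene was its first listed start.

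**Figure D2:**
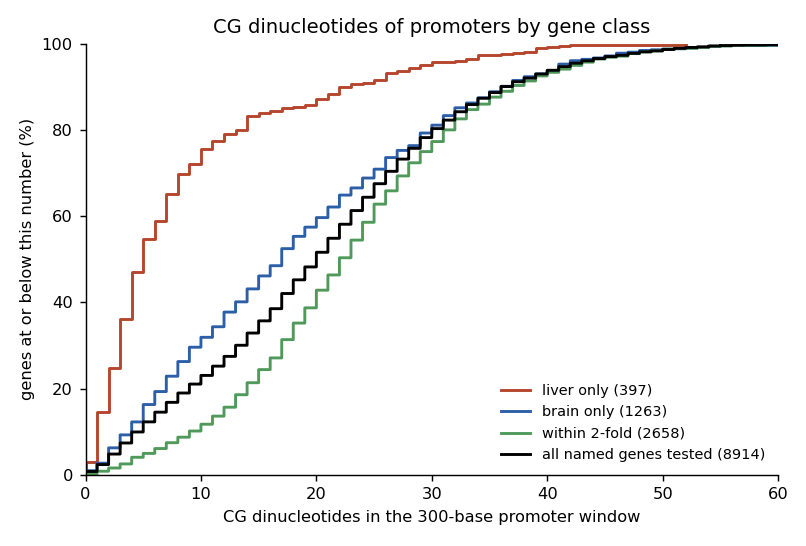
Cumulative share of genes (vertical axis, percent) by the number of CG dinucleotides in the promoter window (horizontal axis), for liver-only, brain-only and within-2-fold genes and all named genes tested. The liver-only curve lies to the left, with a median of 5, and the within-2-fold curve to the right, with a median of 22.

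Short motifs known from promoter biology were counted on both strands, and none of them contains another, although GGGCGG and TGACGTCA each hold a CG. The motif of the hepatocyte factor HNF1 was in 3.02% (12) of the liver-only windows, in 0% of the brain-only and 0.0752% of the within-2-fold windows, and in 0.437% of all windows. The letters CAAAGTCCA, a form bound by HNF4, were in 2.52% (10) of liver-only, 0.158% of brain-only and 0.301% of within-2-fold windows, against 0.477% of all. TATAAA was in 19.9%, 8.63% and 5.98% of the 3 classes and 14.2% of all windows. GGGCGG, the GC box, was in 28.2%, 57.9% and 67.5%, against 35.9% of all. TGACGTCA, the cAMP response element, was in 0.756%, 3.01% and 4.48%, against 1.88%. Over the named genes tested, the shares were 0.303% for the HNF1 motif and 0.404% for CAAAGTCCA. They were 8.11% for TATAAA, 62.8% for GGGCGG and 3.19% for TGACGTCA. Beside these, brain-only windows were close for TATAAA and TGACGTCA and somewhat lower for GGGCGG. To show the hepatocyte motifs in place, the 4 liver-only genes with the largest bounds are given for each, with the motif in capitals and its first base counted from the start.
Hgfac (chr5:35041481-35041530, + strand, motif at -8): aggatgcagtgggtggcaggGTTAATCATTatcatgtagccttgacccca
Prodh2 (chr7:30493510-30493559, + strand, motif at -128): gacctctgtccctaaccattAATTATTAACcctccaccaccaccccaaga
F13b (chr1:139501632-139501681, + strand, motif at -55): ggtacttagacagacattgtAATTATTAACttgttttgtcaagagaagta
Ugt1a1 (chr1:88211894-88211943, + strand, motif at -45): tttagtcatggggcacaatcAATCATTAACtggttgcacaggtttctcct
Cyp2c70 (chr19:40187322-40187370, - strand, motif at -64): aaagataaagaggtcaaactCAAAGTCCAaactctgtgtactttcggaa
Cyp3a11 (chr5:145879935-145879983, - strand, motif at -109): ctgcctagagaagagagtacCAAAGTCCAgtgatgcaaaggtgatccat
Cyp8b1 (chr9:121916344-121916392, - strand, motif at -67): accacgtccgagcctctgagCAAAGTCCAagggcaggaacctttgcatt
Cyp2c67 (chr19:39649139-39649187, - strand, motif at -125): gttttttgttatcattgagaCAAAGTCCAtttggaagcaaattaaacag
Hgfac activates hepatocyte growth factor, Prodh2 breaks down hydroxyproline, F13b is a chain of clotting factor XIII, and Ugt1a1 conjugates bilirubin. The other 4 encode cytochromes P450 of steroid, bile acid and drug oxidation. A match of letters is not evidence of binding.

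Some genes of a class were neighbours in the order of the tested genes along the chromosomes. Of liver-only genes 28.4%, and of brain-only genes 32%, lay next to a gene of their own class. These classes made up 4.69% and 14.8% of the tested genes placed. A neighbour on either side counted, so a random order would also give shares above these. How far above was not tested. The longest liver-only runs, picked after the values were seen, were 8 Cyp2c genes on chromosome 19 (from Cyp2c55 to Cyp2c70), 6 Cyp2b, Cyp2a and Cyp2g genes on chromosome 7 and 5 Ugt2 genes on chromosome 5. In brain the runs held Begain, Dlk1, Meg3, Rtl1 and Rian on chromosome 12 and the clustered protocadherins Pcdha and Pcdhb on chromosome 18. Members of such families are close copies, so probes may read more than 1 of them. The X chromosome held 1.54% of liver-only, 3.74% of brain-only and 3.06% of all named genes. On the 3 wild-type bone marrow arrays of the study, 21.7% of liver-only and 9.66% of brain-only features were detected throughout, against 77.2% of the features detected on all 6 liver and brain arrays.

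Among genes detected on all 6 arrays, those with the widest gaps were led by Serpina1c in liver and Syp in brain. The protease inhibitor Serpina1c read 14.95, 15.1 and 15.1 in liver and 4.84, 4.86 and 5.01 in brain, a difference (liver minus brain, with its standard error) of 10.15 ± 0.10 (limma adjusted p = 3.37e-10). The major urinary protein Mup2 read 15.96, 15.96 and 15.96 in liver and 5.46, 5.95 and 6.97 in brain. Its probe was the brightest on each liver array and Serpina1b the second, so quantile normalisation gave each the same value 3 times, and their spread is not measured. The alcohol dehydrogenase Adh1 differed by 9.54 ± 0.11, the hepcidin copy Hamp2 by 9.83 ± 0.23, and the apolipoprotein Apoa2 by 9.24 ± 0.23. At the other end, Syp differed by -8.64 ± 0.12, the calcium sensor Vsnl1 by -7.93 ± 0.17, the secreted glycoprotein Olfm1 by -7.65 ± 0.12 and the surface glycoprotein Thy1 by -7.03 ± 0.14. Uba6, an enzyme that activates ubiquitin, differed by -8.40 ± 0.21 on 1 of its 2 probes, the other not passing the filter. Among features detected on all 6 arrays, 43 were at least 64-fold higher in liver and 31 in brain, and 221 and 145 were at least 16-fold higher.

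Genes for plasma proteins made in the liver lay on the liver side throughout. Of 38 carrier and hormone precursor genes listed, 36 had a probe named here and 33 passed the filter, and all of those 33 were higher in liver, where 36.9% of all features were. The median difference was 7.31 with undetected members at their bounds, against 0.02 for all features by the same count. Ttr, the thyroxine and retinol carrier, was the smallest, with 14.08, 14.05 and 14.01 in liver and 13.38, 13.8 and 13.61 in brain (difference 0.45 ± 0.13, limma adjusted p = 0.0109); the choroid plexus of the brain also makes it. Clotting and fibrinolysis genes were higher in liver in 17 of 17 past the filter (median 7.04), led by the fibrinogen chain Fga with 15.04, 15.01 and 14.92 in liver and 4.5, 4.52 and 4.81 in brain, plasminogen Plg, clotting factor F10 and protein C, Proc. Complement genes were higher in 19 of 19 (median 5.32), with at least 277-fold for the complement inhibitor Cfi and 159-fold for the terminal component C9. Of 18 lipoprotein genes, 17 were higher in liver and 1, at -0.2, was not called. Apoc3, an inhibitor of lipoprotein lipase, read 15.1, 15.2 and 15.63 in liver and 5.03, 4.69 and 4.95 in brain, and 2 of the 3 brain arrays detected it.

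Bile acid, urea and amino acid genes followed. In bile acid synthesis and transport, 14 of 15 were higher in liver (median 6.11), among them the acid-conjugating Slc27a5 at least 319-fold, the sterol hydroxylase Cyp8b1 at least 417-fold and the bile acid receptor Nr1h4 at least 110.0-fold. The other, Cyp46a1, which clears cholesterol from neurons, was at least 4.12-fold higher in brain, with 7.09, 7.17 and 7.54 there. The urea cycle and ammonia group was higher in liver in 9 of 9 (median 5.06). Arg1, which splits arginine into urea and ornithine, read 13.28, 13.53 and 13.36 in liver and 4.46, 4.29 and 4.31 in brain, and Ass1, which joins citrulline to aspartate, read 13.88, 14.05 and 14.18 in liver and 8.25, 8.13 and 8.4 in brain, so Ass1 was above background in the brains and Arg1 was not. Glul, glutamine synthetase, belongs to both organs and had the smallest difference, 0.45. Of 28 amino acid breakdown genes, 27 were higher in liver and 0 in brain (median 4.73). Besides Mat1a and Gnmt, the kynurenine pathway gene Haao and the tyrosine pathway gene Hpd were at least 323-fold and 282-fold higher.

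Genes of fuel metabolism lay mostly on the liver side, with a few brain forms on the other. Of 16 gluconeogenesis and glycogen genes, 14 were higher in liver (median 3.35). G6pc, which frees glucose for export, read 11.81, 12.32 and 12.24 in liver and 4.8, 4.83 and 4.64 in brain, Fbp1, fructose bisphosphatase, read 12.3, 12.22 and 12.07 in liver and 4.35, 4.91 and 4.51 in brain, and the glycogen-targeting phosphatase subunit Ppp1r3b read 11.36, 11.16 and 10.77 in liver and 4.83, 4.89 and 4.8 in brain. The exceptions were glycogen phosphorylases of other organs: Pygb, the brain form, read 6.76, 6.35 and 6.3 in liver and 9.86, 9.94 and 9.58 in brain, and Pygm, the muscle form, was at least 1.71-fold higher in brain. Of 25 genes of fatty acid oxidation and ketone formation, 23 were higher in liver (median 2.78), from 0.98 for Cpt1b to at least 442-fold for the fatty acid hydroxylase Cyp4a14. Again 2 were higher in brain, both with a brain role: Oxct1, which lets cells use ketone bodies, read 7.18, 7.03 and 6.83 in liver and 11.93, 11.85 and 11.85 in brain (difference -4.86 ± 0.12), and Cpt1c, the neuronal member of its family, read 7.09, 7.04 and 6.88 in brain, at least 3.43-fold higher. The thiolase Acaa2 (13.32, 13.31 and 13.09 in liver and 8.2, 8.11 and 8.31 in brain) and Oxct1 lay on opposite sides, with no overlap between tissues in either.

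In lipid synthesis 18 of 20 genes of fatty acid and triglyceride formation were higher in liver (median 1.94), among them the glucose-responsive factor Mlxipl with a difference of 5.38 ± 0.12. Elovl4, which builds very long fatty acids, and the desaturase Scd2 were higher in brain, at least 23.2-fold and 3.01-fold. Cholesterol synthesis, which the brain runs for itself, was higher in liver in 15 of 16 genes past the filter (median 2.28), and 14 of the 16 were detected on all 6 arrays. Lanosterol synthase Lss read 10.25, 10.5 and 9.57 in liver and 6.03, 6.14 and 6.18 in brain, and the sterol isomerase Ebp read 11.35, 11.49 and 11.44 in liver and 7.68, 7.58 and 7.62 in brain. The regulator Srebf2 was higher in brain by a small margin (-0.52 ± 0.18, limma adjusted p = 0.0277); its other probe gave the opposite direction, and without brain array 2 or 3 it was not called, at -0.55 and -0.45, while without liver array 3 it was called at -0.31.

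Enzymes of drug and hormone metabolism were nearly all on the liver side. Of 43 cytochrome P450 and related oxidative genes past the filter, 41 were higher in liver, 1 in brain and 1 not called (median 6.44), and 24 of the 43 were detected in liver only. Cyp2e1, which oxidises ethanol, read 14.7, 14.73 and 14.78 in liver and 4.66, 4.8 and 5.17 in brain, and Cyp2c37 was at least 444-fold higher. Cyp2j9 was the one higher in brain, with 7.27, 6.8 and 7 in liver and 8.92, 8.76 and 8.39 in brain. Of 40 conjugating enzymes, 36 were higher in liver and 4 in brain (median 3.93). The glucuronosyltransferases Ugt2b36 and Ugt3a2 were at least 418-fold and 313-fold higher in liver, and Sult4a1 and Ugt8a, which makes the myelin lipid galactosylceramide, led the 4 in brain. Hepatocyte transport proteins were higher in liver in 17 of 17 (median 5.23), with Aqp9, a glycerol channel, at 12.86, 13.22 and 12.99 in liver and 5.43, 5.62 and 5.59 in brain, and Asgr1, the asialoglycoprotein receptor, at 12.73, 12.75 and 12.84 in liver and 6, 5.84 and 5.79 in brain.

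**Figure D3:**
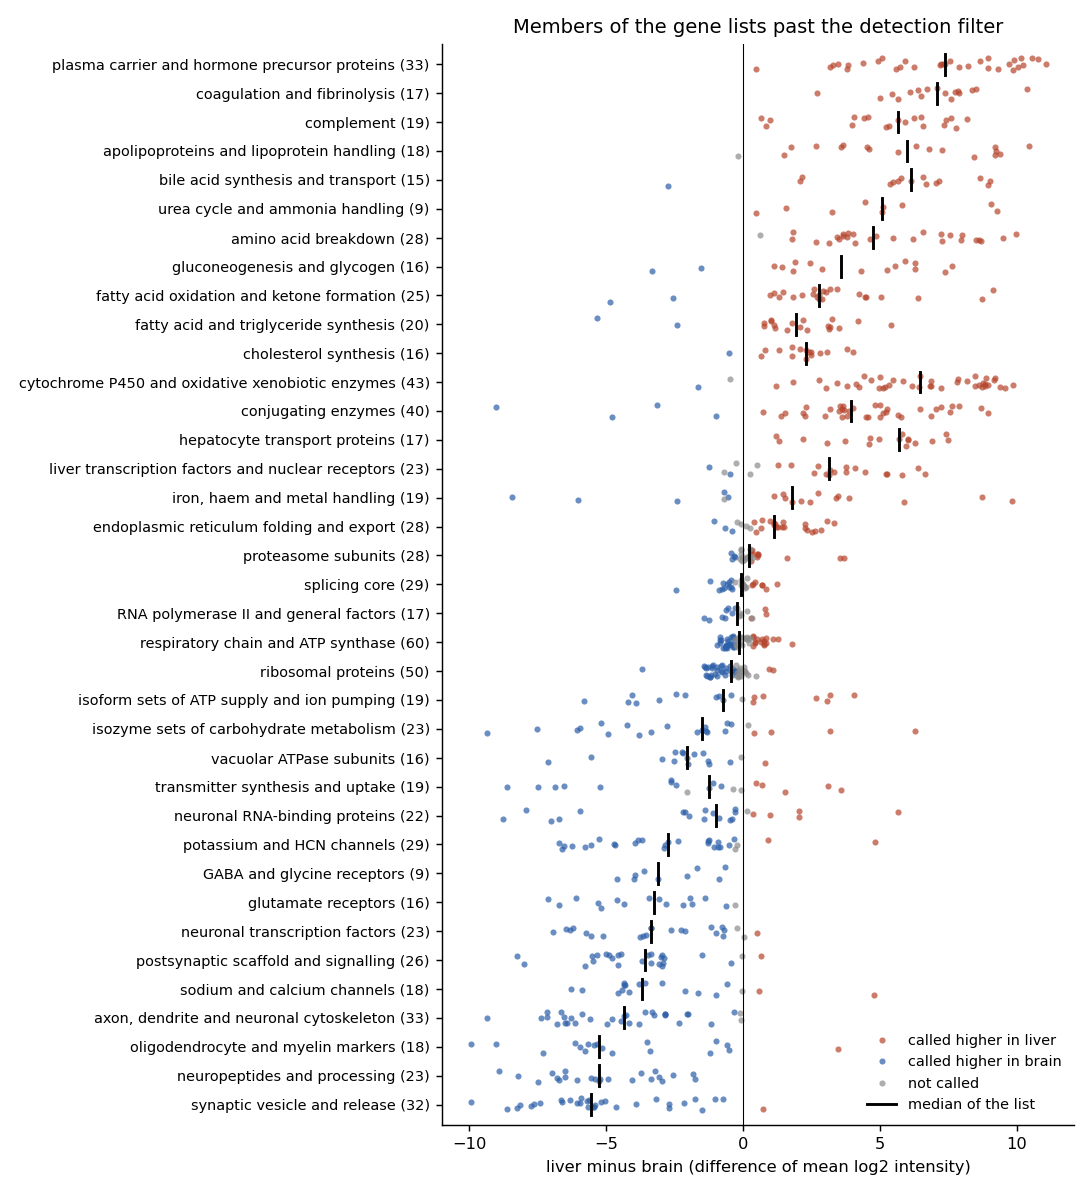
Difference between liver and brain (horizontal axis, liver minus brain in log2 intensity) for each member of 37 gene lists past the detection filter, coloured by call, with a bar at each list's fitted median and the number of members in parentheses; members undetected in a tissue are drawn at their fitted difference. Plasma protein, clotting and cytochrome lists lie to the right, synaptic, neuropeptide and myelin lists to the left, and proteasome, splicing, respiratory and ribosomal lists around 0.

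Transcription factors of the hepatocyte were mostly higher in liver. Of 23 liver factors and nuclear receptors past the filter, 17 were higher in liver, 2 in brain and 4 were not called (median 3.03). Of all features, 36.9% were higher in liver and 42.7% in brain. Foxa3 read 11.9, 11.24 and 10.33 in liver and 4.43, 4.57 and 4.61 in brain, at least 82.6-fold higher in liver. Hnf4a read 10.99, 10.62 and 10.58 in liver and 5, 5.08 and 4.76 in brain, and the oxysterol receptor Nr1h3 read 10.69, 10.52 and 10.51 in liver and 5.34, 5.32 and 5.27 in brain, both with no overlap between tissues. Bcl6 (-1.24 ± 0.21) and the retinoid partner receptor Rxrb (-0.50 ± 0.10) were higher in brain. Of 19 iron and metal genes past the filter, 13 were higher in liver and 5 in brain. Those higher in liver included Hamp, the iron hormone hepcidin, at least 366-fold, and the iron exporter Slc40a1 at 3.86 ± 0.09. Those higher in brain included Mt3 and the vesicular zinc carrier Slc30a3, which read 6.36, 5.22 and 4.76 in liver and 11.39, 11.57 and 11.47 in brain. Genes for folding and export in the endoplasmic reticulum, which secretory cells need, were higher in liver in 21 of 28 and in brain in 3 (median 1.14), led by the cargo receptor Lman1 (3.30 ± 0.12) and the disulfide isomerases P4hb (3.06 ± 0.10) and Pdia4 (2.61 ± 0.11).

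Genes of the synaptic vesicle lay on the brain side with 1 exception. Of 40 listed, 38 had a probe named here and 32 passed the filter, and 31 of these were higher in brain, where 42.7% of all features were (median -5.35). Besides Cplx1, Syp and Sv2a, the vesicular inhibitory transmitter carrier Slc32a1 read 4.42, 4.5 and 4.54 in liver and 12.54, 12.38 and 13.04 in brain, at least 172-fold higher in brain. The one gene called higher in liver was the synapsin Syn3, at 5.73, 5.34 and 5.81 in liver and 5, 4.83 and 4.92 in brain; 2 of the 3 liver arrays detected this probe. Postsynaptic genes were higher in brain in 24 of 26 (median -3.37). The calmodulin-binding neurogranin Nrgn read 4.8, 4.41 and 4.85 in liver and 12.36, 12.6 and 13.14 in brain, Nlgn2, an adhesion protein of inhibitory synapses, read 5.07, 5.04 and 4.77 in liver and 10.66, 10.73 and 10.79 in brain, and the activity-regulated gene Arc read 4.46, 4.35 and 4.43 in liver and 9.39, 10.47 and 9.94 in brain. The spread of Arc among brains, over 1 on the log2 scale, was wider than that of Nlgn2. Gphn, the gephyrin scaffold, which also makes the molybdenum cofactor in other tissues, was higher in liver by 0.65 ± 0.11 (-0.12, not called, with no normalisation between arrays).

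Receptors and channels were mostly higher in brain as well. Glutamate receptor genes were higher in brain in 15 of 16 past the filter (median -2.49), and receptors for GABA and glycine in 9 of 9 (median -2.33). The AMPA receptor subunit Gria2 read 4.69, 4.38 and 4.67 in liver and 11.73, 11.75 and 11.68 in brain, the metabotropic receptor Grm5 read 4.3, 4.52 and 4.26 in liver and 9.7, 9.59 and 9.75 in brain, and the GABA receptor subunit Gabrb1 read 4.51, 4.55 and 4.5 in liver and 9.32, 9.14 and 8.99 in brain. None was above background in liver. Sodium and calcium channel genes were higher in brain in 15 of 18 (median -2.87), led by the sodium channel subunit Scn2b, at least 43.2-fold. Cacna1d, an L-type calcium channel, was called higher in liver on ILMN_2416764, at 10.51, 10.26 and 10.15 in liver and 5.76, 5.57 and 5.3 in brain, whereas its ILMN_2663841 did not differ by the test (-0.18, limma adjusted p = 0.256). Potassium and pacemaker channels were higher in brain in 25 of 29 (median -2.01), among them the subunits Kcna6 and Hcn2, at least 66-fold and 56.9-fold. The exceptions were Kcnk5 (9.79, 9.86 and 9.32 in liver and 5, 4.73 and 4.78 in brain) and Kcnn2 (0.89 ± 0.16), both higher in liver.

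Genes of transmitter metabolism fell on both sides. Of 19 genes past the filter, 11 were higher in brain, 5 in liver and 3 were not called (median -0.81). Of all features, 42.7% were higher in brain and 36.9% in liver. Gad1 and Gad2, which make GABA, read 11.87, 11.83 and 12.02 and 10.84, 10.65 and 11.28 in brain, at least 103-fold and 52-fold higher. Ddc, which makes dopamine and serotonin from their amino acid precursors, was higher in liver, at 10.99, 10.72 and 10.56 in liver and 8.43, 7.74 and 6.78 in brain, and so was the monoamine oxidase Maob, at 12.07, 11.87 and 12.09 in liver and 8.72, 8.53 and 8.09 in brain. Slc1a2, known as the main glutamate transporter of astrocytes, was also higher in liver, at 11.06, 10.53 and 11.01 in liver and 9.35, 9.38 and 9.28 in brain, on all 3 of its probes past the filter. Neuropeptide and processing genes were higher in brain in 23 of 23 (median -4.41). The processing enzyme Cpe read 6.15, 4.67 and 5.15 in liver and 14.39, 14.25 and 14.12 in brain, the chaperone Scg5 was at least 119-fold higher, and the peptides Sst and Npy read 12.49, 12.56 and 12.78 and 10.98, 11.26 and 11.9 in brain, at least 167-fold and 71.1-fold higher.

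The cytoskeleton of axons and dendrites was higher in brain in 31 of 33 genes (median -4.16), and 11 of the 33 were detected on all 6 arrays. The motors Kif5c and Kif5a, which run along axons, were at least 99.1-fold and 78.4-fold higher, and the growth-associated Stmn2 at least 104-fold. Neuronal transcription factors were higher in brain in 20 of 23 (median -2.78), led by Myt1l, which holds off non-neuronal genes (4.39, 4.4 and 4.26 in liver and 11.26, 11.19 and 11.47 in brain), and by Egr3 (4.44, 4.38 and 4.55 in liver and 10.63, 10.88 and 11.25 in brain). RNA-binding proteins of neurons were higher in brain in 16 of 22 and in liver in 5 (median -0.71), where 42.7% and 36.9% of all features were. Elavl2 and Elavl3, neuronal Hu proteins, were at least 60.8-fold and 67.9-fold higher in brain. Elavl1, the widely expressed member of that family, was higher in liver, at 9.36, 9.29 and 9.06 in liver and 7.1, 7.18 and 7.3 in brain, and so was Esrp2, an epithelial splicing regulator, at 9.96, 10.05 and 9.73 in liver and 4.28, 4.26 and 4.29 in brain, at least 34.8-fold. The Hu family thus had members on both sides.

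Enzymes that exist as several isoforms lay on opposite sides within a single pathway. Of 23 members of carbohydrate isozyme sets past the filter, 18 were higher in brain, 4 in liver and 1 was not called (median -1.41). Of all features, 42.7% were higher in brain and 36.9% in liver. The glucose carrier Slc2a2 of hepatocytes read 10.6, 10.89 and 10.94 in liver and 4.54, 4.47 and 4.55 in brain, at least 64.9-fold higher in liver. The neuronal carrier Slc2a3 read 5.4, 4.99 and 4.98 in liver and 11.13, 11.15 and 11.03 in brain, and Slc2a1, the carrier of the blood-brain barrier, read 8.53, 8.51 and 8.66 in liver and 10.06, 10.07 and 9.78 in brain. All 3 carriers separated the tissues, in opposite directions. At the last step of glycolysis the liver form Pklr read 7.18, 7.73 and 7.68 in liver and 4.32, 4.28 and 4.54 in brain on a probe not above background in brain, and Pkm, the form of most other tissues, read 7.65, 8 and 7.91 in liver and 12.92, 12.79 and 12.69 in brain. Eno2 stood apart as given above, while Eno3, the muscle enolase, read 6.11, 5.82 and 6.25 in liver and 5.82, 6.16 and 5.71 in brain and was not called (limma adjusted p = 0.37).

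The 3 phosphofructokinase genes Pfkl, Pfkm and Pfkp were all higher in brain, by -1.31 ± 0.14, -3.81 ± 0.14 and -4.26 ± 0.11; Pfkl, named for liver, had the smallest gap. Aldoc, the brain aldolase, differed by -5.19 ± 0.14 and Aldoa by -3.37 ± 0.11. Hk1, the hexokinase of brain, read 4.97, 4.67 and 4.65 in liver and 7.59, 7.45 and 7.62 in brain. Glycolytic enzymes in general use were much closer: Tpi1 differed by -0.44 ± 0.10, Gapdh by -0.65 ± 0.10 and Pgam1 by -0.60 ± 0.10, all higher in brain, while Pgk1 was higher in liver by 0.39 ± 0.10. Of these small differences, Tpi1 (0.31) and Gapdh (0.16) turned towards liver when arrays were scaled by the median of detected probes, and Pgk1 turned to -0.09 with no normalisation between arrays. Ldha, which makes lactate, was higher in liver by 1.02 ± 0.10. The creatine kinases, which buffer ATP in brain and muscle, were higher in brain: Ckb read 9.39, 8.94 and 8.81 in liver and 15.13, 15.04 and 15.2 in brain, and the mitochondrial Ckmt1 read 7.23, 4.42 and 4.36 in liver and 13.03, 12.83 and 12.75 in brain, with liver array 1 far above the other livers.

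**Figure D4:**
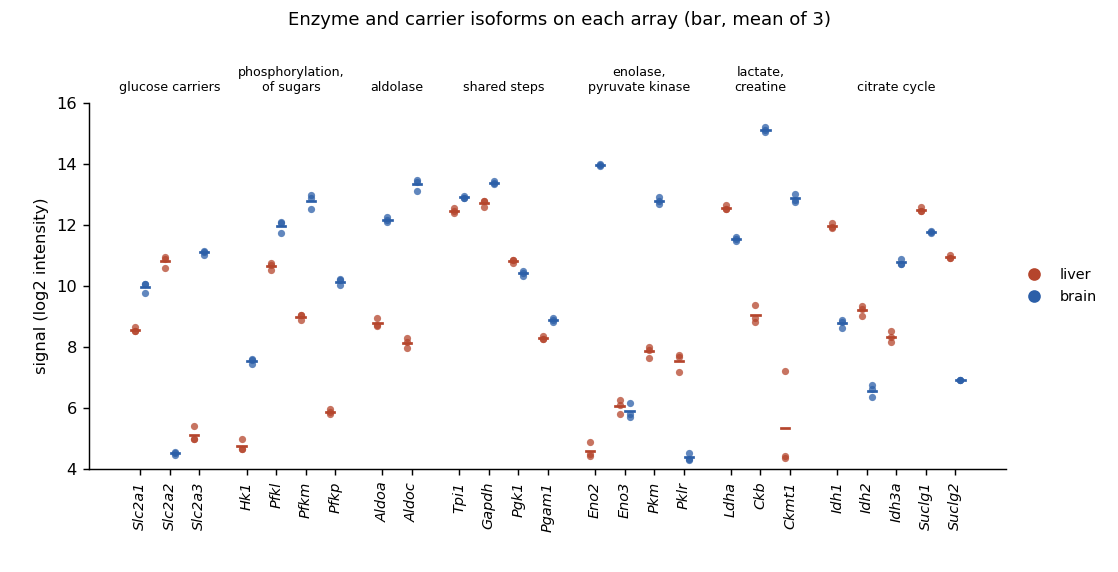
Signal of 25 isoforms on each of the 3 liver and 3 brain arrays (vertical axis, log2 intensity), with a bar at the mean of 3 arrays. They are sugar carriers, glycolytic enzymes, creatine kinases, isocitrate dehydrogenases and succinyl-CoA synthetase subunits. Slc2a2 and Pklr are high in liver, and Slc2a3, Eno2, Pkm, Aldoc and Ckb are high in brain, with Tpi1, Gapdh and Pgk1 near each other in both.

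Isoforms of ATP supply and ion pumping are given next for their members. Of 19 past the filter, 11 were higher in brain and 7 in liver, where 42.7% and 36.9% of all features were (median -0.45, and -0.06 as a fitted median under scaling by detected probes). The NADP-dependent isocitrate dehydrogenases Idh1 and Idh2 were higher in liver by 3.18 ± 0.12 and 2.65 ± 0.14, and the NAD-dependent Idh3a was higher in brain (-2.44 ± 0.12). Suclg2, the subunit that makes succinyl-CoA synthetase produce GTP, read 10.91, 10.93 and 11.01 in liver and 6.91, 6.91 and 6.93 in brain, with arrays of a tissue within 0.1 of each other. The sodium pump subunits Atp1b1 and Atp1b2, which restore ion gradients in neurons and glia, were higher in brain by -4.05 ± 0.16 and -5.82 ± 0.16. The calcium pumps Atp2b2 and Atp2a2 differed by -3.92 ± 0.28 and -3.08 ± 0.17. Cox6a2, known as the heart and muscle form of a cytochrome oxidase subunit, was at least 11.1-fold higher in brain, whereas Cox7a1 was not called (-0.03 ± 0.12). The vacuolar proton pump, which fills synaptic vesicles as well as lysosomes, was higher in brain in 14 of 16 genes (median -2.05). Atp6v1g2 and Atp6v0e2 led, at -7.13 ± 0.12 and at least 27.4-fold, and Atp6v0e was higher in liver (0.78 ± 0.10).

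The core machinery was close in both tissues, and its small differences followed the normalisation. Of 50 ribosomal protein genes past the filter, 49 were detected on all 6 arrays and 27 of those lay within 2-fold, where 44.1% of all such features did. Under quantile normalisation 32 were higher in brain and 2 in liver (median -0.46). With scaling by detected probes 9 were higher in brain and 11 in liver (fitted median -0.05). Rpl38 (-1.43 ± 0.12) and Rpl9 (-1.38 ± 0.11) were called towards brain and Rpl7a (1.08 ± 0.11) towards liver in the former. Rps15a had the widest gap, at 6.34, 5.27 and 6.26 in liver and 9.92, 9.66 and 9.39 in brain, and ribosomal genes have many processed copies that probes may share. Of 60 respiratory chain and ATP synthase genes, 44 of the 58 detected on all 6 arrays lay within 2-fold; 25 were higher in brain and 16 in liver, against 0 and 33 with scaling by detected probes and 10 and 22 with cyclic loess, so no direction holds for the group.

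Proteasome subunits lay within 2-fold in 24 of 27 genes detected on all 6 arrays, where 44.1% of all such features did. Psmb8 and Psmb9, the subunits of the immunoproteasome, stood out: Psmb8 read 9.87, 10.05 and 9.87 in liver and 6.29, 6.47 and 6.45 in brain and Psmb9 read 8.44, 9.23 and 8.96 in liver and 5.19, 5.22 and 5.21 in brain, higher in liver by 3.53 ± 0.11 and 3.67 ± 0.19. Psmd11 was higher in liver too (1.61 ± 0.12). Of the core splicing genes, 22 of 27 detected on all 6 arrays were within 2-fold, with the small nuclear ribonucleoprotein Snrpd1 at -1.23 ± 0.09 and the branch-site partner U2af1 at 1.22 ± 0.13. Of the RNA polymerase II genes, 12 of 17 were within 2-fold, with Polr2g at -1.43 ± 0.11. Reference genes used to normalise other assays were not all level. Of 14 past the filter, each detected on all 6 arrays, 7 lay within 2-fold. That is near the 44.1% of all such features. B2m, the light chain of class I antigens, read 14.32, 14.39 and 14.28 in liver and 11.47, 11.58 and 11.79 in brain, higher in liver by 2.72 ± 0.11, and Ywhaz, a 14-3-3 protein, read 10.57, 10.46 and 10.34 in liver and 12.49, 12.47 and 12.56 in brain. Ppia and Hprt differed by -1.19 ± 0.10 and -1.44 ± 0.10, also higher in brain.

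Among 24 writers and erasers of histone H2A ubiquitin past the filter, 11 were higher in brain, 7 in liver and 6 were not called (median -0.29), where 42.7% and 36.9% of all features were higher in brain and liver. With no normalisation between arrays 19 were higher in brain and 1 in liver. Mysm1, the gene targeted in the study, lay within 2-fold on its brightest probe. ILMN_3119954 read 8.04, 8.05 and 7.78 in liver and 7.96, 8.11 and 8.01 in brain (difference -0.07 ± 0.11, limma adjusted p = 0.612). The Mysm1 probe ILMN_1217271 was detected on the brain arrays alone, at 5.21, 5.39 and 5.23, and read 4.7, 4.61 and 4.56 in liver. These brain values lie near the lowest detected signals of the liver arrays (5.12, 5.34 and 5.22), so detection sets almost no bound on the fold. By the fit, this probe was called higher in brain (-0.66, limma adjusted p = 0.000495 over all probes past the filter). The remaining Mysm1 probes were detected on no array. The deubiquitinases Usp3 and Usp16 were higher in liver (1.77 ± 0.11 and 1.10 ± 0.10) and Usp46 in brain (-2.89 ± 0.13). Of the Polycomb group, Cbx6 was at least 20.7-fold higher in brain, with Yaf2 at -3.36 ± 0.11 and Phc1 at -2.59 ± 0.13. Of 15 clock genes, 7 were higher in brain, where 42.7% of all features were, and 2 in liver, against 11 and 0 with no normalisation between arrays. The clock output factor Dbp read 6.86, 6.99 and 7.23 in liver and 11.05, 11.6 and 11.9 in brain, Per1 read 4.84, 6.31 and 5.91 in liver and 7.82, 8.3 and 8.02 in brain, and the clock activator Arntl was higher in liver by 0.71 ± 0.11 (-0.27, not called, with no normalisation between arrays). The labels do not state the time of day at sampling.

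Markers of oligodendrocytes and astrocytes lay mostly on the brain side. Oligodendrocyte genes were higher in brain in 17 of 18 (median -4.69). Cldn11 and Mobp were at least 327-fold and 49.8-fold higher, Mag read 5.1, 5.57 and 4.63 in liver and 12.57, 12.48 and 12.2 in brain, and Trf, transferrin, a product of both oligodendrocytes and hepatocytes, was higher in liver at 15.3, 15.3 and 15.25 in liver and 12.08, 11.88 and 11.57 in brain. Astrocyte genes were higher in brain in 12 of 16, with the neurotensin receptor Ntsr2 at least 81.3-fold and the gap junction gene Gjb6 at least 64-fold. In liver 3 were higher, among them the folate enzyme Aldh1l1 at 11.76, 12.43 and 12.3 in liver and 7.77, 7.54 and 7.44 in brain. Of 11 choroid plexus and ependyma markers, 6 were higher in brain, 4 in liver and 1 was not called (median -0.17). Of all features, 42.7% were higher in brain and 36.9% in liver, so this list as a whole did not stand out. The anti-ageing Kl was at least 4-fold higher in brain, and the water channel Aqp1, at 11.33, 11.28 and 11.25 in liver and 5.81, 6.62 and 6.09 in brain, was higher in liver.

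Resident macrophages had genes on either side. Of 20 macrophage markers past the filter, 14 were higher in liver and 4 in brain (median 0.93), against 8 and 6 with no normalisation between arrays. The Kupffer cell receptors Vsig4 and Clec4f read 10.43, 10.82 and 10.86 and 10.18, 10.41 and 10.39 in liver, at least 60.2-fold and 46.4-fold higher. The microglial receptors Cx3cr1 and Trem2 read 8.05, 8.19 and 8.36 and 6.24, 6.56 and 6.99 in brain, at least 7.85-fold and 2.58-fold higher. Endothelial markers were higher in liver in 14 of 22 and in brain in 4, where 36.9% and 42.7% of all features were, but in 9 and 8 with no normalisation between arrays. The sinusoidal lectin Clec4g was at least 196-fold higher in liver and the scavenger receptor Stab2 at least 15.3-fold, while the thyroxine carrier Slco1c1 of brain capillaries was at least 12.7-fold higher in brain, and Ly6c1 read 5.9, 5.12 and 6.35 in liver and 9.2, 9.3 and 9.25 in brain. Stellate and fibroblast markers were higher in liver in 11 of 15, with the retinol-storing enzyme Lrat at 6.88, 6.98 and 7.85 in liver, at least 5.45-fold. Of 12 bile duct markers, 3 passed the filter, and of these the keratins Krt8 (5.91 ± 0.10) and Krt18 (at least 44.9-fold), which hepatocytes also make, were higher in liver. Blood cells were represented by 5 of 23 markers, among them the erythroid Alas2 (7.34, 8.22 and 8.28 in liver and 4.78, 4.92 and 5.1 in brain) and the B cell gene Cd79b, at least 2.43-fold higher in liver. Pancreas, muscle and fat markers past the filter numbered 5 of 18, with Cela1, an elastase, at 9.2, 9.75 and 10.09 in liver and 5.78, 5.92 and 5.92 in brain and the skeletal actin Acta1 at least 4.32-fold higher in brain. The part of these cells in other differences was not tested.

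Arrays of the same tissue were not interchangeable for regional genes. The median standard deviation over 3 arrays was 0.148 in liver and 0.119 in brain, but some lists had 1 brain array at the top or bottom for most of their members. Brain array 3 led for the striatal list. It was the highest of the brains for 12 of 12 striatal markers, and for 4713 of all 12589 features detected in all brains. Rgs9, a striatal regulator of dopamine signalling, read 8.82, 10.03 and 12.36, Rasd2 read 11.24, 11.63 and 13.1, and Pde1b, a phosphodiesterase, read 11.9, 12.34 and 13.54 in brains 1, 2 and 3. The dopamine receptor Drd1 read 7.1, 8.26 and 10.18 and the dopamine-regulated phosphatase inhibitor Ppp1r1b 9.9, 11.06 and 13.03 (both named after their values were seen). Hypothalamic hormone genes ran the other way, with array 3 the lowest for 5 of 6: Pmch, the melanin-concentrating hormone, read 11.36, 11.36 and 5.5, and vasopressin, Avp, read 7.78, 8.28 and 5.02. Array 3 was also the lowest for 17 of 18 oligodendrocyte markers and the highest for 14 of 16 macrophage markers, by smaller amounts (medians of -0.25 and 0.25 against the mean of the other arrays), and the lowest for 13 of 16 astrocyte markers (-0.25). Brain array 2 was the highest for 11 of 11 choroid plexus and ependyma markers.

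**Figure D5:**
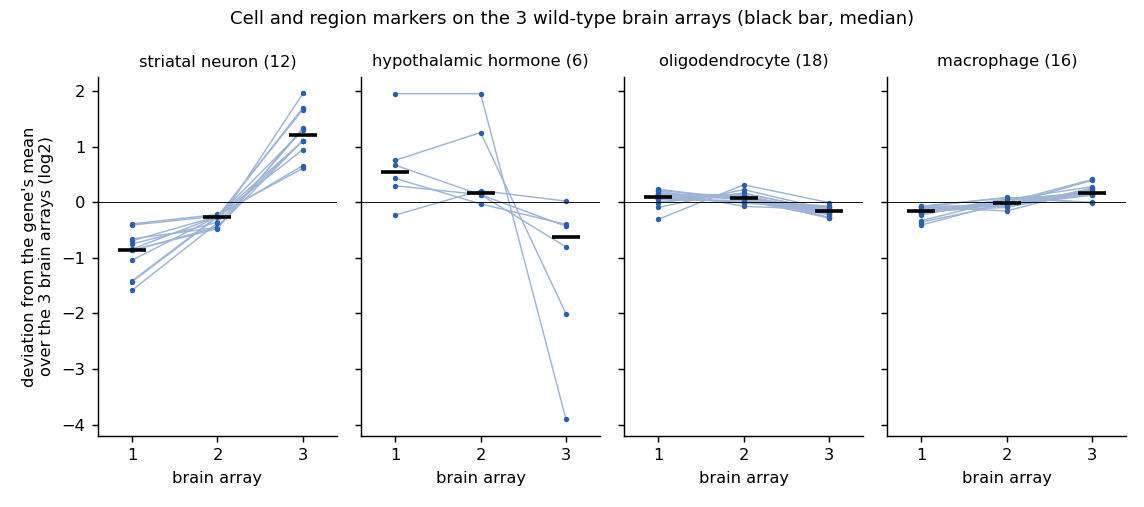
Deviation of each marker from its own mean over the 3 wild-type brain arrays (vertical axis, log2) by array (horizontal axis), for striatal, hypothalamic, oligodendrocyte and macrophage markers detected on all 3; lines join the values of a gene and black bars are medians. Striatal markers are highest on array 3 in 12 of 12 genes, and hypothalamic hormone genes are lowest there in 5 of 6.

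Other regional genes had the same kind of spread. Tph2, the serotonin-making enzyme of the raphe nuclei, read 9.29, 5.39 and 5.08, high on brain array 1 alone, and was not called (limma adjusted p = 0.0828); its bound of 2.57-fold higher in brain fell to 1.01-fold without brain array 1 and rose to 4.29-fold without brain array 3, with the difference called in both cases. C1ql2, a synaptic organiser, read 10.08, 9.7 and 6.79, the cerebellar Cbln1 10.41, 9.93 and 8.44, and Ido1, which opens tryptophan breakdown, 5.79, 7.1 and 9.48. Without brain array 3, Ido1 was at least 2.28-fold higher in brain in place of 4.69-fold, and Rgs9 at least 18.3-fold in place of 36.2-fold. Rasd2 (-6.44) and Pde1b (-5.98), which at least 1 liver array detected, were still called higher in brain without that array, as were Ido1 and Rgs9.

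In liver, genes with wide spreads among the arrays included a bile acid gene and smooth muscle genes. Cyp7a1, the rate-limiting enzyme of bile acid synthesis, read 12.49, 12.12 and 9.75, with array 3 low, and was at least 101-fold higher than in brain. Depp1 read 8.69, 9.93 and 11.3 and Rgs16, a regulator of G protein signalling, 5.43, 5.99 and 8.21, both highest on array 3. Rgs16 was not called (limma adjusted p = 0.136), but was called higher in brain without liver array 3, at -2.18, and without brain array 3, at -1.95. Actg2 and Acta2, smooth muscle actins, read 9.72, 5.62 and 6.18 and 11.7, 9.36 and 9.78, both highest on array 1, as was Eif4ebp3 at 8.33, 6.24 and 6.02. Acta2 was not called between the tissues (limma adjusted p = 0.903), and was called higher in brain, at -0.62, without liver array 1. Actg2 was called higher in liver, at least 5.21-fold, but lost the call without any 1 of the brain arrays (bounds of 4.97 to 5.03), and was at least 2.23-fold higher, and called, without liver array 1. The part of the piece of tissue taken was not tested.

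For some genes the answer depended on the probe. Of 4059 named genes with at least 2 probes past the filter, 221 (5.44%) had 1 probe called higher in liver and another in brain. In 109 of these, the called probes with the largest difference in each direction were both detected on all 6 arrays. Prepl, a serine peptidase, read 6.76, 6.56 and 6.77 in liver and 10.63, 10.52 and 10.17 in brain on ILMN_1254104, while ILMN_2684173 read 9.19, 8.84 and 9.13 in liver and 4.49, 4.45 and 4.22 in brain. The second of these probes was not above background in brain, at least 19.2-fold higher in liver. Tardbp, an RNA-binding protein, was at least 30-fold higher in liver on ILMN_2487104 and differed by -1.81 on ILMN_1244811. The lectin pathway protease Masp1 was at least 54.9-fold higher in liver on ILMN_2660969 and differed by -1.85 on ILMN_1250760. The kinase Araf differed by 3.20 on ILMN_2914271 and was at least 6.51-fold higher in brain on ILMN_1216083. Tpm2 and H2bc6 differed by 1.93 and 2.09 on the probe higher in liver and were at least 2.75-fold and 2.29-fold higher in brain on the other. Slc44a1, with both probes detected on all 6 arrays, had 1.66 and -2.48, and Gusb had 2.51 and -1.71, the latter on a probe that 1 of 3 liver arrays detected. Which transcripts these probes read was not tested. Of the control genes, Xist, the X-inactivation transcript, read 9.52, 9.53 and 9.78 in liver and 8.54, 8.85 and 8.78 in brain. Of 3 sex-linked genes past the filter, 2, Xist among them, were higher in liver and Uty was not called (0.15). The probes of Eif2s3y and Kdm5d, also sex-linked, were detected on no array. Nnt, whose exons are partly deleted in the C57BL/6J substrain, read 5.77, 6.09 and 5.59 in liver and 4.65, 4.84 and 4.71 in brain on its brightest probe. It was called higher in liver, but not with BeadChip as a term over 18 arrays.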

How the data were processed

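Total RNA of 3 wild-type livers and 3 wild-type brains was read on Illumina BeadChips as biotin-labelled cRNA. The deposited table holds the authors' bead summary intensity for each probe and array, not normalized, with a detection p-value beside it, per the file headers. The submitters' processing notes name BeadStudio and limma, with versions not given in the sources used here. A deposited table of the authors' processed intensity values served as an alternative.

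Intensities were background-corrected by normexp from the detection p-values (neqc, limma 3.58.1 in R 4.3.3, offset 16), quantile-normalised over the 6 arrays and put on the log2 scale. Of 45281 probes, 34885 had 1 gene symbol in the platform annotation, 18 several and 10378 none. Probes with a detection p under 0.05 on all 3 arrays of at least 1 tissue passed the filter (19553). A gene was represented by its brightest probe on average, which left 13683 features, 11060 of them named. Groups were compared with lmFit and eBayes, two-sided, with Benjamini-Hochberg adjustment over all features. The procedure was tested on simulated data. The number of arrays limits the precision.

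Each list gave its 4 largest called members in the majority direction and up to 2 in the other, and named genes also came from the 12 largest differences or bounds per tissue, the 10 genes nearest equality, the 2 isozyme lists, the 8 genes with the most opposed probes and the most variable genes of each tissue. Genes outside this rule were chosen after their values were seen. The comparison and the 54 lists were chosen with earlier results of these data known. Over the lists, 1048 of 1235 distinct genes with a probe passed the filter. Alternatives covered normalisation, background correction, filters, probe choice, variance model, BeadChip, genotype and each array left out.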

Additional observations from a re-analysis of the deposited data

How the results depend on the processing

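The counts of features higher in liver (5051) and in brain (5841) stayed within 1.5 times under the alternatives run, except with no normalisation between arrays (2625 and 8826) and, for features higher in brain, when testing was limited to those detected on all 6 arrays (3044). With every probe tested, features detected in brain only numbered 3735. Among probes detected on all 6 arrays, genes with probes of opposite direction numbered 131, with any opposed pair of such probes counted. Leaving out 1 array at a time gave 4733 to 5138 features higher in liver, 5521 to 5838 higher in brain, 3531 to 3871 within 2-fold, 751 to 790 detected in liver only, 2527 to 2798 in brain only and 170 to 241 genes with opposed probes. Between liver and brain arrays of the same replicate number, deviations from the tissue means correlated at 0.0551, -0.0205 and 0.0331. These values cannot tell whether 1 animal gave both tissues, since deviations of different tissues need not go together. A fit with the replicate block gave 4995 features higher in liver, 5780 features higher in brain and 3845 features within 2-fold. With BeadChip as a term over 18 arrays, 9012 calls kept their direction, 4 turned and 1876 were lost.

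Small differences turned with the scaling, and other causes were not tested. With scaling by the median of detected probes, Cox4i1 (0.09), Cox5b (0.04), Cox6a1 (0.16), Gapdh (0.16), Psmd1 (0.37), Tpi1 (0.31), Uqcrh (0.03) and the fitted medians of reference genes (0.07) and respiratory genes (0.41) turned towards liver. With cyclic loess, Psmd1 (0.00) and the respiratory median (0.15) did. With no normalisation between arrays, Arntl (-0.27), Cacna1e (-0.01), Cox7a2 (-0.61), Eno3 (-0.83), Gphn (-0.12), Gtf2f2 (-0.05), Gtf2h4 (-0.11), Lep (-0.08), Lhx6 (-0.17), Pgk1 (-0.09), Psmd12 (-0.12), Snrnp200 (-0.18), Uty (-0.45) and the medians of endothelial (0.00), muscle, fat and pancreas (-0.08) and proteasome genes (-0.19) turned away from liver. Sec11c turned with BeadChip as a term (0.14) and in homozygous arrays (0.07), where Lhx6 (-0.34) turned too. Acta2 turned on 1 BeadChip (-1.28), in heterozygous (-1.43) and homozygous (-0.94) arrays and without liver array 1 (from -0.62 to 0.52 over the arrays left out). Among members detected on all 6 arrays, the medians of 4 choroid plexus genes (4.78) and 7 transmitter genes (0.70) turned. Of the sodium and calcium channels only 1 gene was left, Cacna1d (4.76 on 1 of its probes), which is no median of a list. Of the values for named genes under alternatives, 7619 stayed the same, 93 weakened, 18 gained a call and 28 turned. Staying the same meant a kept call and direction for a called gene, and still no call, in either direction, for an uncalled one. For the genes nearest equality it meant an interval still within 2-fold, and weakening meant an interval beyond that. Signal near background limits the folds of undetected genes to bounds.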
